A study of Sus scrofa with 48 samples.

Results

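The neighbouring genes ARRB2, PELP1, ALOX15, ALOX12, RNASEK and SLC16A11 of pig chromosome 12 were described in liver across 48 pigs. They were chosen by their line differences in these same values, each with at least 1 probe that differed between the 2 lines, so their line differences are given below as a description and carry no test. They were found on the array by gene name or by accession: 10 probes matched, all 10 were bright enough to be tested, and they stood for 6 of the 10542 named genes tested. In the Sscrofa11.1 annotation ARRB2, PELP1 and ALOX15 follow each other, a non-coding RNA separates ALOX15 from ALOX12, RNASEK comes next, and 5 annotated genes lie between RNASEK and SLC16A11. The build behind the array is not given in the sources used here, so only the order of the genes is used and no coordinates.

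Liver RNA came from purebred Large White barrows of a line selected for low residual feed intake (RFI; RFIneg) or a line selected for high RFI (RFIpl). RFI is the feed a pig eats beyond what its growth and body composition predict. Within each line 12 pigs ate a diet rich in fat and fibre (HF) and 12 a diet poor in both (LF). Tissue was taken at the same age, in the hours after a meal. Each line is a single selection line, so the 24 pigs of a line are animals of that line and not repeated selections, and each array held the RNA of 1 pig. Values are log2 signals after subtraction of the array's median over 45236 tested probes, so that 0 is the level of the median probe. The word "called" stands for P below 0.01 and a fold change (FC) above 1.1, and P-BH is the Benjamini-Hochberg adjusted value over all tested probes.

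ALOX12 and ALOX15 encode lipoxygenases, non-heme iron enzymes that add oxygen to arachidonic and linoleic acid and yield hydroperoxides, the precursors of signalling lipids and, for ALOX15, also oxidise lipids held in membranes. Platelets are the textbook source of ALOX12, and macrophages and eosinophils of ALOX15. ARRB2 encodes beta-arrestin 2, which binds activated G protein-coupled receptors, stops their signalling and guides their uptake, and is abundant in leukocytes. PELP1 is a scaffold for nuclear receptors and part of a complex that helps ribosomal subunits mature. RNASEK is a small membrane protein associated with the vacuolar proton pump, and SLC16A11 is a transporter of the monocarboxylate family that is present in liver.

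The probe sequences are shown first, because probes of 1 gene gave different answers and because the names of the lipoxygenase probes need care. The following 60-base probes were read from the scanner output, 5′ to 3′, with capitals marking the letters AATAAA, which form the usual polyadenylation signal, and a closing run of A.
ALOX12, O4369: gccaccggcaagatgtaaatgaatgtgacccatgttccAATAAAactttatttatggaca
ALOX12, overlapping probe: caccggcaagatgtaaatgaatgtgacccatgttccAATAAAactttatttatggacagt
ALOX15, A_72_P146721: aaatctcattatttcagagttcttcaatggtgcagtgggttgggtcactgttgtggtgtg
ALOX15, A_72_P440316: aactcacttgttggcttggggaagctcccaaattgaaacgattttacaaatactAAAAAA
ARRB2, A_72_P057981: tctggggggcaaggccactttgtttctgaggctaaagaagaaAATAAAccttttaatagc
ARRB2, A_72_P316373: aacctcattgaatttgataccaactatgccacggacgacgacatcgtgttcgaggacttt
ARRB2 by name, O12180: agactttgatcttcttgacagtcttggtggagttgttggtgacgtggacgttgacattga
RNASEK, CUST_48_PI427286967: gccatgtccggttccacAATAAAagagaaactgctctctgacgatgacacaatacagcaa
RNASEK, O14784: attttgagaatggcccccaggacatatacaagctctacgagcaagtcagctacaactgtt

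AATAAA occurred on the strand of the probe in 10.26% of the 60305 probes of the array and on the other strand in 4.32%, and AAAAAA closed 2.42% of them. Both lipoxygenase probes with the prefix A_72 were named ALOX12 by the scanner output, but their accession is that of the gene called ALOX15 in the current annotation, which lists the older name ALOX12 among its synonyms. They are called ALOX15 here, and O4369 alone stands for ALOX12. No 2 member probes shared a run of 16 bases. Outside the 10 probes, 1 unnamed probe shared 58 of its 60 bases with O4369 and another was identical to A_72_P146721. These 2 were found by sequence, not by name, and served as second measurements of the same sequence.

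**Figure D1:**
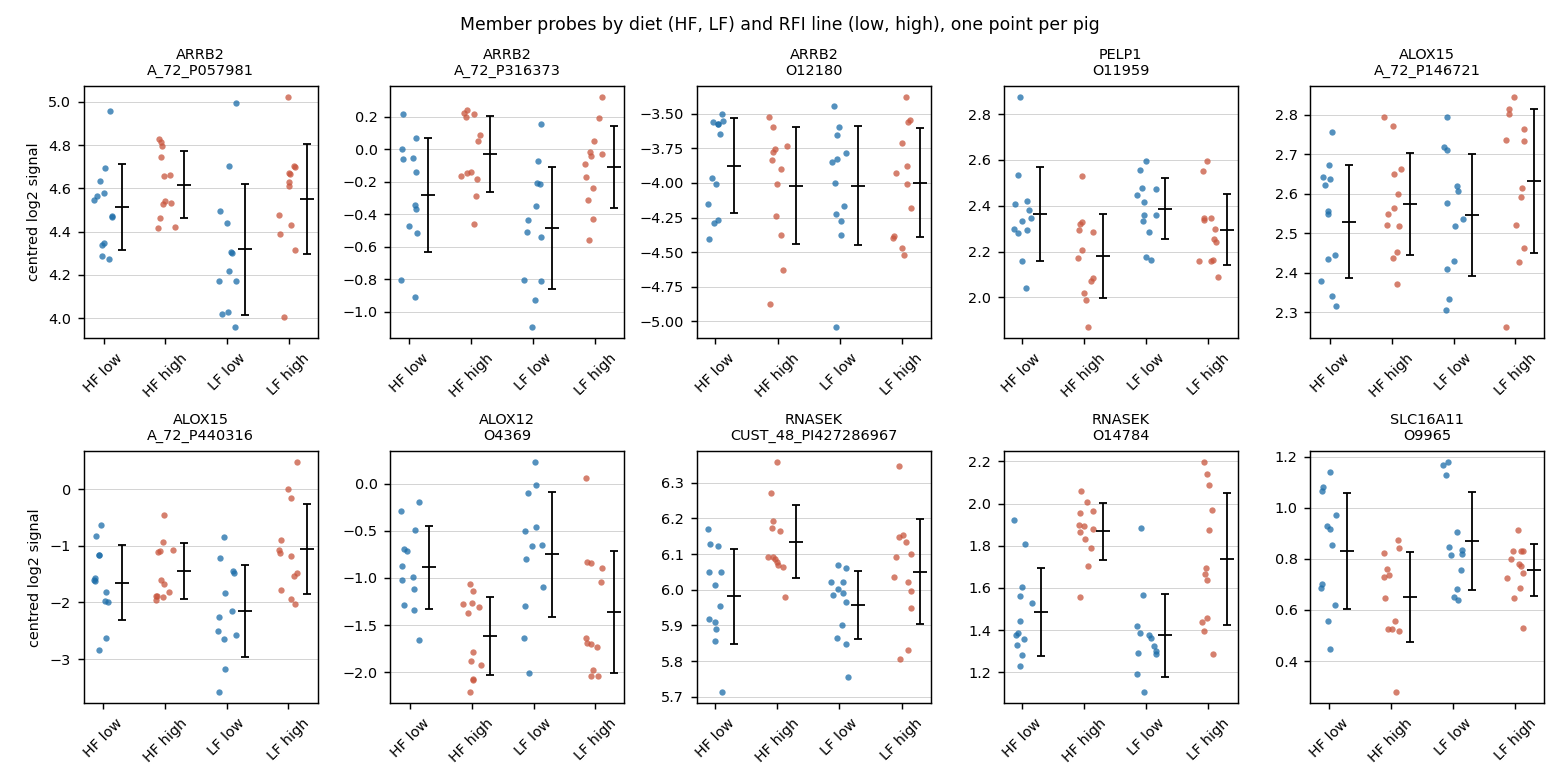
Centred log2 signal of the 10 member probes in each pig, by diet (HF, LF) and RFI line (low in blue, high in red), with the mean and SD of each group of 12 pigs beside the points. ALOX12 lay higher and RNASEK O14784 lower in the low RFI line with both diets, whereas ALOX15 A_72_P146721 overlapped over nearly its whole range.

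ALOX12 was over-expressed in the low RFI line. Its centred log2 signal averaged -0.82 ± 0.55 (SD, n = 24) for low RFI and -1.49 ± 0.55 for high RFI. Values ran from -2.01 over a median of -0.76 to 0.22 in the low RFI line, and from -2.21 over -1.66 to 0.06 in the high RFI line. The ranges overlapped almost entirely, yet 23 of the 24 low RFI pigs exceeded the high RFI median. The difference was 0.67 (SE 0.16; FC 1.59; 0.39 under normexp), with 0.72 in pigs fed HF and 0.61 in pigs fed LF. The probe was dim, with a median signal of 114 on the linear scale in the low RFI line, but it was well above background on all 48 arrays. The overlapping probe gave -0.59 ± 0.55 and -1.27 ± 0.58, a difference of 0.68 (SE 0.16). Its values followed those of O4369 between pigs with r = 0.93 in the low and 0.88 in the high RFI line (n = 24 each), so the wide spread of ALOX12 between pigs of 1 line was seen by both spots.

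ALOX15 gave 2 answers. The bright probe A_72_P146721 averaged 2.54 ± 0.15 (SD, n = 24) for low RFI and 2.60 ± 0.16 for high RFI and was not called (difference -0.06, SE 0.05). Values went from 2.31 to 2.79 with a median of 2.55 in the low RFI line, and from 2.26 to 2.84 with a median of 2.60 in the high RFI line. The lines thus overlapped over nearly the whole range, and the probe of identical sequence differed by -0.03 (SE 0.04). The dim probe A_72_P440316 was under-expressed in the low RFI line, at -1.90 ± 0.77 against -1.25 ± 0.68, a difference of -0.64 (SE 0.20; FC 1.56). The size depended on the background handling, with -0.28 under normexp, -0.38 with unsubtracted median intensity and -0.37 in the deposited values. Its values ran from -3.58 over -1.83 to -0.63 in the low RFI line and from -2.03 over -1.33 to 0.47 in the high RFI line, and 9 low RFI pigs lay beyond the high RFI range. The difference was -0.20 with HF and -1.08 with LF, but the interaction of line and diet was not significant once adjusted over all probes (0.88, SE 0.40, P = 0.0301, P-BH close to 1).

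Between pigs the 2 ALOX15 probes followed each other with r = 0.34 in the low and 0.31 in the high RFI line, neither past a P-BH of 5% in the permutation test. The 2 probes of identical ALOX15 sequence were related with r = 0.86 and 0.88, which describes how repeatably 1 sequence was read on these arrays. Which of the 2 probes measures the enzyme's transcript better was not tested.

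**Figure D2:**
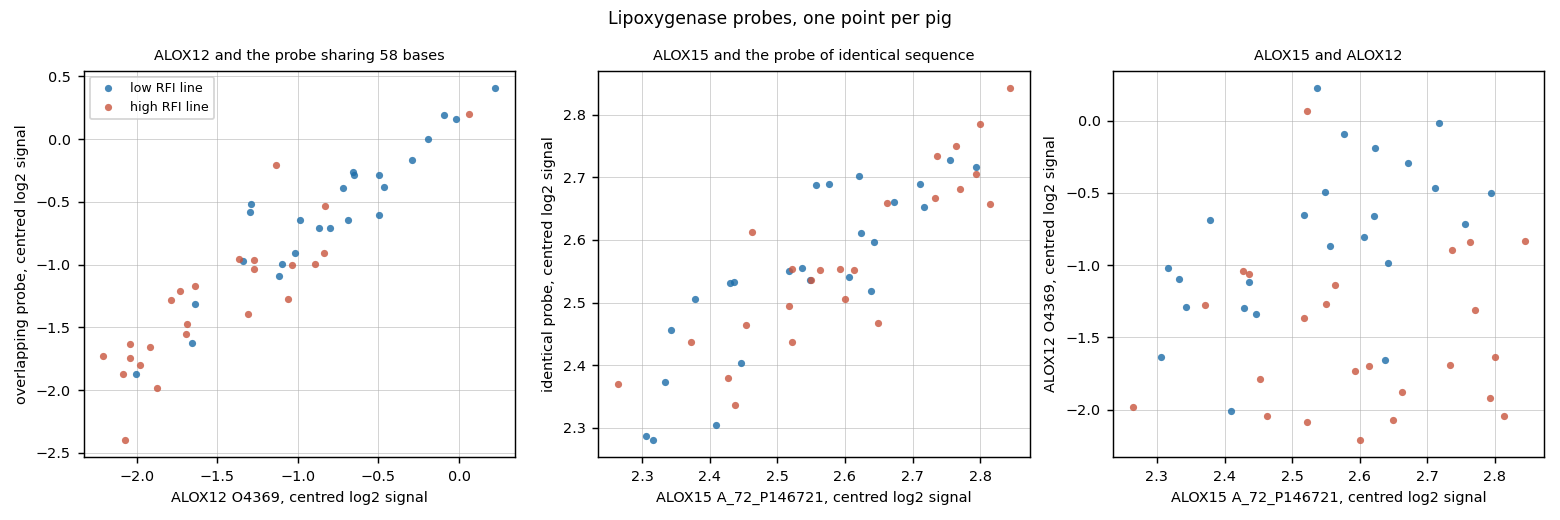
Centred log2 signal of lipoxygenase probes, one point per pig, for ALOX12 O4369 against the overlapping probe (left), ALOX15 A_72_P146721 against the probe of identical sequence (middle) and ALOX15 A_72_P146721 against ALOX12 (right). The 2 left panels follow a line in both RFI lines (r from 0.86 to 0.93), whereas ALOX12 followed ALOX15 with r = 0.55 in the low (blue) and 0.02 in the high RFI line (red).

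ARRB2 was under-expressed in the low RFI line by 1 of its 2 brighter probes. A_72_P316373 was at -0.38 ± 0.37 (SD, n = 24) in the low and -0.07 ± 0.24 in the high RFI line, a difference of -0.31 (SE 0.09; FC 1.24), and was called. Its values ran from -1.09 over -0.36 to 0.22 and from -0.56 over -0.06 to 0.32, so that 6 low RFI pigs lay beyond the high RFI range. A_72_P057981, with a median signal of 4095 in the low and 4711 in the high RFI line, was at 4.42 ± 0.27 and 4.58 ± 0.21. Its difference of -0.17 (SE 0.07) had the same direction but did not reach the P cut-off. The remaining probe named ARRB2, O12180, was well above background on 23 of 48 arrays only. Its difference was 0.06 (SE 0.11), and -0.02 with normexp. No transcript sequence was used here, so whether this probe reads the strand of the ARRB2 mRNA was not checked.

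RNASEK was under-expressed in the low RFI line by 1 probe and just missed the fold change cut-off by the other. O14784 was at 1.43 ± 0.21 (SD, n = 24) against 1.80 ± 0.24, a difference of -0.37 (SE 0.06; FC 1.29). Its values ran from 1.11 over 1.38 to 1.92 in the low and from 1.29 over 1.87 to 2.19 in the high RFI line, and 22 of 24 low RFI pigs fell short of the high RFI median. CUST_48_PI427286967 averaged 5.97 ± 0.11 against 6.09 ± 0.13. Its difference was -0.12 (SE 0.04; FC 1.09), which left it just outside the fold change cut-off, with 21 of 24 low RFI pigs under the high RFI median.

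PELP1 and SLC16A11, each with 1 probe, were over-expressed in the low RFI line by small amounts. PELP1 was at 2.38 ± 0.17 (SD, n = 24) against 2.24 ± 0.18, with values from 2.04 over 2.36 to 2.87 and from 1.87 over 2.25 to 2.60. The difference of 0.14 (SE 0.05) stood just inside the fold change cut-off, and 20 of 24 low RFI pigs exceeded the high RFI median. SLC16A11 was at 0.85 ± 0.21 against 0.70 ± 0.15, with values from 0.45 over 0.84 to 1.18 and from 0.28 over 0.74 to 0.91. Its difference was 0.15 (SE 0.05; FC 1.11), and 9 low RFI pigs lay beyond the high RFI range. Neither call was firm: over 15 settings of the processing, the one used here included, PELP1 was called in 6 and SLC16A11 in 9, and both kept their sign in each (0.08 to 0.19 and 0.11 to 0.15).

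In all, 6 of the 10 member probes were called between lines, 3 with a higher and 3 with a lower level in the low RFI line, while 6.91% of the 45236 tested probes were called. Since this contrast chose the members, nothing is read from that count. With 75th percentile centring, normexp or unsubtracted median intensity 4 were called, and PELP1 and SLC16A11 dropped out. ALOX12 and RNASEK O14784 were called in all 15 settings, and they were the only members called on each scan day on its own. These settings and days use the pigs and the contrast that chose the members, so such calls are no independent support. The pigs scanned on day 1 and those scanned on day 2 (24 arrays each, 12 per line) gave the same direction for all 10 probes. ALOX12 differed by 0.78 on day 1 and 0.56 on day 2, and RNASEK O14784 by -0.36 and -0.38.

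**Figure D3:**
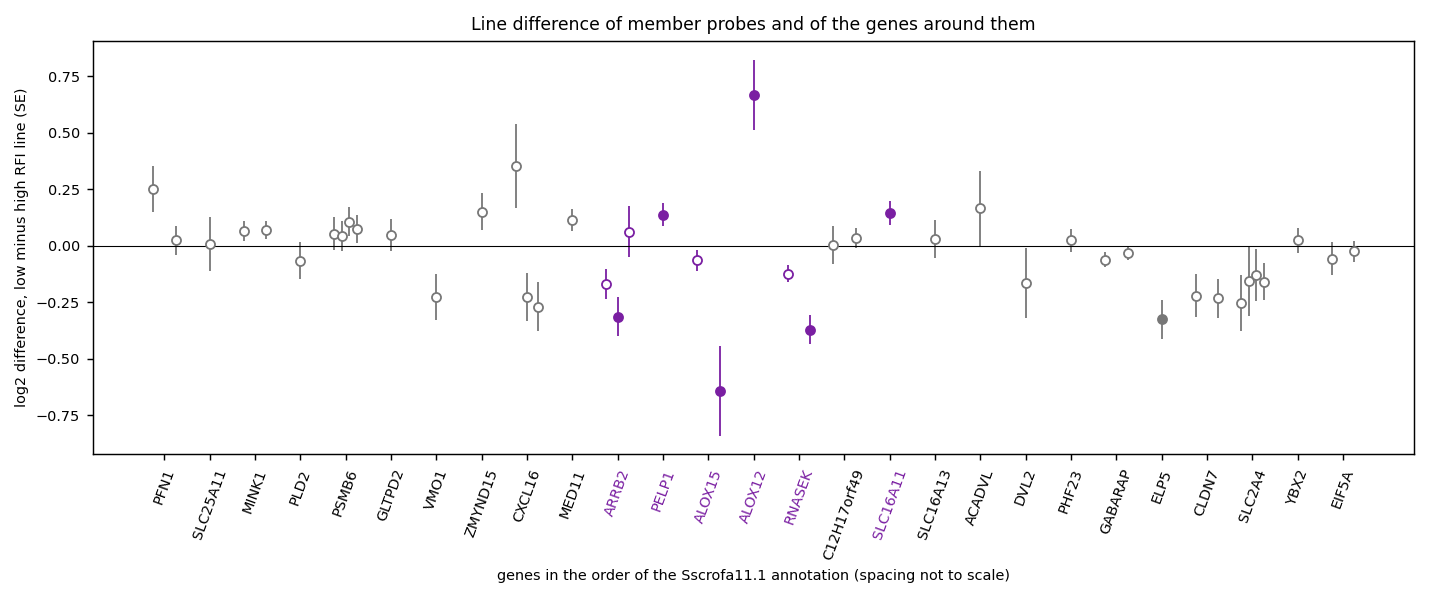
Log2 difference between lines (low minus high RFI, with SE) of each tested probe of the 6 members (purple) and of 21 other named genes around them (grey), in the order of the annotation and not to scale. Filled circles were called. Called members lay from -0.64 (ALOX15 A_72_P440316) to 0.67 (ALOX12), and ELP5 was the single called gene among the others.

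Among 10 named genes on each side and those in between, 21 genes were measured by 35 probes. One of the 35 was called for line, against 6.91% of all tested probes. It was the probe of ELP5, a subunit of the Elongator complex that modifies transfer RNA, which was under-expressed in the low RFI line (0.60 ± 0.30 against 0.92 ± 0.30, difference -0.32, SE 0.09, P-BH = 0.0189). C12H17orf49, the single measured gene between RNASEK and SLC16A11, differed by 0.01 and 0.03 in its 2 probes (P-BH = 0.991 and 0.829). SLC16A13, the relative of SLC16A11 that follows it in the annotation, differed by 0.03 (SE 0.08; P-BH = 0.936). In median, the 35 probes differed by 0.01, as did all tested probes.

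Diet left the members without a call. None of 10 probes was called for diet, when 4.61% of all tested probes were, and none passed an unadjusted P of 0.05. The smallest P was that of ARRB2 A_72_P057981, which was 0.13 (SE 0.07) higher with HF (P = 0.0592, P-BH = 0.368), followed by RNASEK O14784, 0.12 (SE 0.06) higher with HF (P = 0.0679, P-BH = 0.387). ALOX12 differed by -0.19 (SE 0.16) between HF and LF (P = 0.218). Of the genes around the members, 6 of 35 probes were called for diet, all of them beyond SLC16A11. SLC2A4, the insulin-responsive glucose transporter, was lower with HF by all 4 probes, most in A_72_P440846 (-0.97, SE 0.16, P-BH = 0.00110). PHF23, which carries a PHD finger, was higher with HF (0.21, SE 0.05, P-BH = 0.0400), and YBX2, a nucleic acid-binding protein of germ cells, was lower by 0.15 on the log2 scale (SE 0.05), though not past a P-BH of 5% (0.191).

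No member probe was called for the interaction of line and diet, against 0.376% of all tested probes. The spread between pigs, taken as the mean absolute deviation from the line and diet group mean, did not pass a P-BH of 5% for any member either, while 0.402% of all tested probes did. SLC16A11 had the smallest P, with a spread 0.06 (SE 0.03) wider in the low RFI line (P = 0.0357, P-BH = 0.514), and ARRB2 A_72_P316373 came next, with 0.10 (SE 0.05; P = 0.0467, P-BH = 0.553).

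The members were chosen by their line difference and not by their co-variation between pigs within each line. Whether the 2 are related was not tested. The probe with the highest mean signal stood for each gene, and 15 pairs in 2 lines gave 30 correlations over 24 pigs each. None of the 20 value sets (10 probes in 2 lines) met the rule for separate clusters of pigs. The rule asked for a Bayesian information criterion better by over 10 with 2 clusters than with 1. The largest gain was 2.83, for RNASEK O14784 in the low RFI line, with clusters of 3 and 21 pigs. No pair passed a P-BH of 5%, by Pearson's r or by Spearman's rho (permutation test with 100000 resamples, two-sided). In the low RFI line r ran from -0.26 to 0.55 with a median of 0.06, and in the high RFI line from -0.36 to 0.34 with a median of 0.05. A p-value that misses the threshold does not show that the neighbours were unrelated. In the low RFI line 9 of 15 pairs, and in the high RFI line 10 of 15, had r of opposite sign on the 2 scan days.

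The strongest relation was that of the 2 lipoxygenases in the low RFI line. ALOX15 A_72_P146721 and ALOX12 were related there with r = 0.55 and rho = 0.55 (permutation P = 0.00595, P-BH = 0.178 over the 30 tests), with r = 0.48 on scan day 1, 0.68 on day 2 (n = 12 each) and 0.49 without the 2 pigs farthest from the ALOX15 median. In the high RFI line r was 0.02 (permutation P = 0.914). The difference of 0.56 between lines, after the diet group means were removed, did not hold once adjusted over the 15 pairs (permutation P = 0.0406, P-BH = 0.609). With the dim ALOX15 probe in its place, r was 0.19 in the low and 0.36 in the high RFI line. PELP1 and RNASEK were the only other pair with an unadjusted P below 0.05, in the low RFI line (r = 0.42, rho = 0.45, permutation P = 0.0437, P-BH = 0.655), with r = 0.17 on day 1, 0.79 on day 2 and 0.28 without the 2 pigs farthest from the PELP1 median.

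The same 30 relations were computed with the probe that had been called between lines standing for ARRB2, ALOX15 and RNASEK, a choice made after the values were seen. Again no pair passed a P-BH of 5% within a line. ALOX12 and RNASEK O14784 came closest and ran opposite to each other in both lines, with r = -0.58 in the high RFI line (rho = -0.55, permutation P = 0.00271, P-BH = 0.0813) and -0.45 in the low RFI line (rho = -0.48, permutation P = 0.0283, P-BH = 0.170). Both values came mainly from scan day 1, where r was -0.83 in the high and -0.79 in the low RFI line, against -0.30 and 0.04 on day 2 (n = 12 each). Without the 2 pigs farthest from the ALOX12 median the values over both days were -0.41 and -0.38. With the brighter RNASEK probe in place of O14784, r was -0.36 in the high and -0.26 in the low RFI line.

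**Figure D4:**
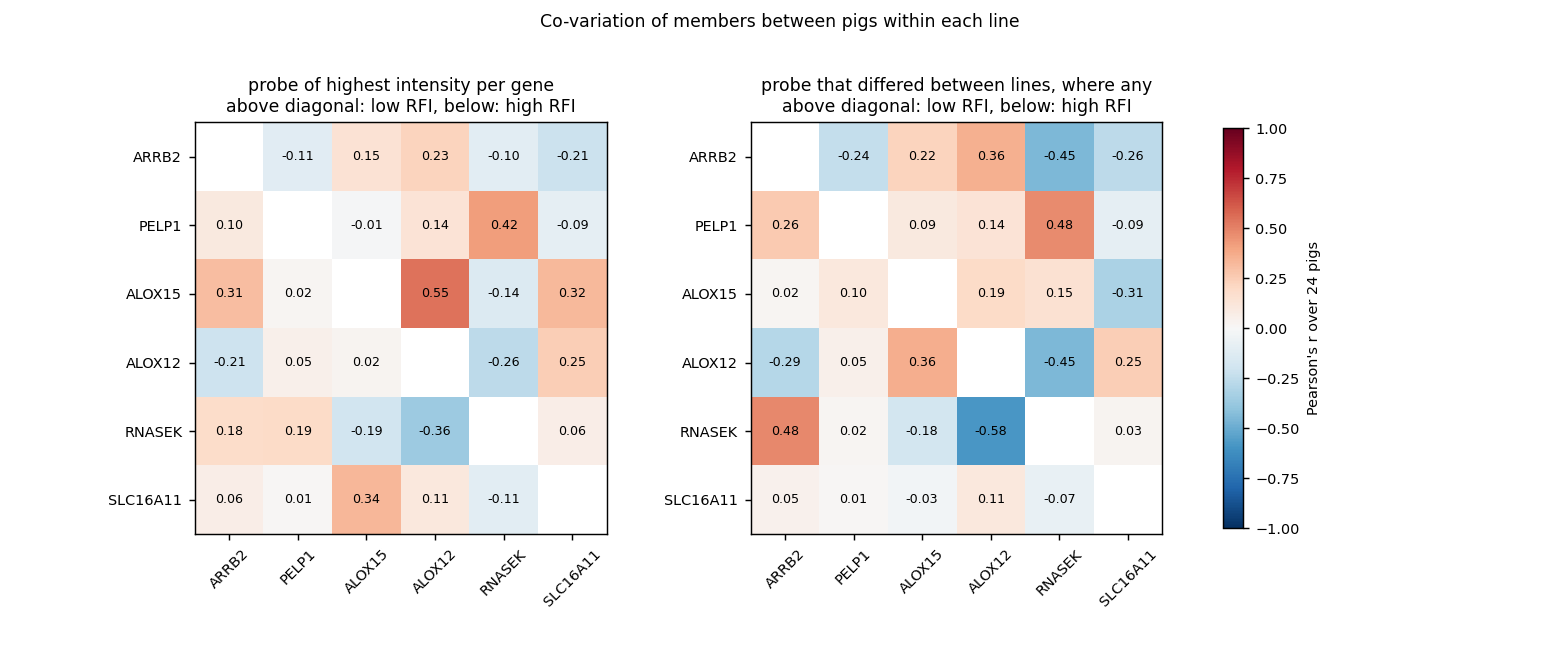
Pearson's r between members over the 24 pigs of each line, low RFI above and high RFI below the diagonal, with the probe of highest intensity per gene (left) and with the probe called between lines where a gene had one (right). The colour scale runs from -1 to 1. The deepest cells are ALOX15 with ALOX12 in the low RFI line (0.55, left) and ALOX12 with RNASEK in the high RFI line (-0.58, right), neither past a P-BH of 5%.

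Probes named for 1 gene did not always follow each other more closely than the neighbours did, and the difference was not tested. The 2 ALOX15 probes gave r = 0.34 in the low and 0.31 in the high RFI line. Both were below the 0.55 of ALOX15 A_72_P146721 with ALOX12 in the low RFI line. The 2 bright ARRB2 probes gave r = 0.82 in the low and 0.76 in the high RFI line, and the 2 RNASEK probes 0.58 and 0.78, all 4 past a P-BH of 5% over the 10 probe pairs and lines (permutation test). O12180 followed neither of the other ARRB2 probes closely (r from 0.17 to 0.32, none past a P-BH of 5%).

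Genes most like each member were sought by Pearson's r of the residuals from the 4 group means over all 48 pigs, given here as a description. Those most like ARRB2 were leukocyte genes: for A_72_P057981 they were FCGR3A, an Fc receptor of macrophages and natural killer cells (r = 0.86), LAPTM5, a lysosomal protein of blood cells (0.85), CYBA, a subunit of the phagocyte oxidase (0.83), and GPSM3, a G protein regulator (0.80). For A_72_P316373 they were LAPTM5 (0.83), ITGB2, the beta chain of leukocyte integrins (0.80), FCGR3B (0.78), FCGR3A (0.78) and CD53, a leukocyte tetraspanin (0.78). No other member reached such values with ARRB2.

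The other members had looser likenesses. PELP1 was most like DENND4A (r = 0.74), FNTB (0.72), CARD6 (0.71), DAXX (0.70) and PICK1 (0.69), and SLC16A11 most like TRIM6-TRIM34 (0.76), CCDC6 (0.74), SUPT16H (0.73), TRPV4 (0.71) and JPH2 (0.70). ALOX15 A_72_P146721 was most like FAM45A (0.70), MUT, the mitochondrial methylmalonyl-CoA mutase (0.69), SRSF10, a splicing regulator (0.67), SMEK1 (0.67) and RAB40B (0.66). RNASEK CUST_48_PI427286967 was most like PARG (0.58), CLSTN1 (0.54), RNGTT (0.54), TCEANC (0.54) and PICK1 (0.53). ALOX12 was most like CD83 (0.54), UBE2V1 (0.51), RSC1A1 (0.50), FAM102A (0.49) and FOS (0.48), with a lower leading value than the brightest probe of any other member. When the members were ranked among all tested probes in the same way, the closest other member was PELP1 for RNASEK, at place 377 of 45234 (r = 0.38). Among the brightest probes of the members, it was the only 1 of 30 ordered pairs within the first 1%. At the opposite end, RNASEK O14784 was the 6th most negative of 45235 probes for ALOX12 (r = -0.49), and ALOX12 the 14th most negative of 45234 for RNASEK O14784. The brighter RNASEK probe was less extreme, at place 44150 of 45235 for ALOX12 (r = -0.28).

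Markers of cell types that a liver sample can hold were set beside the members within each line. The mean of macrophage markers, 10 of 12 measured, followed ARRB2 in both lines, with r = 0.73 and 0.67 for A_72_P057981 and 0.68 and 0.77 for A_72_P316373 (low and high RFI line, n = 24 each). T and NK cell markers did so as well (0.68 and 0.65, and 0.76 and 0.58). Neutrophil markers followed the 2 probes with 0.40 and 0.56, and 0.35 and 0.43, and hepatocyte markers with -0.34 and -0.20, and -0.50 and -0.43. The neutrophil list, 7 of 9 measured, holds FCGR3A, the gene most like ARRB2 A_72_P057981 (r = 0.86). Its r with ARRB2 is therefore not separate from that likeness. Between the low and the high RFI line the T and NK cell mean differed by -0.05, and none of its 18 probes was called. The neutrophil mean differed by -0.07. The macrophage mean differed by -0.13, with values from 2.86 to 3.86 in the low and from 3.05 to 3.84 in the high RFI line. Of its 10 measured genes, 2 were called lower and none higher, by 3 of 29 probes. Over all named genes, 4.83% had a probe called lower and 4.63% one called higher, and 6.91% of all tested probes were called. C1QA, a complement subunit made by macrophages, was lower by 1 of 2 probes (-0.28, SE 0.09, P-BH = 0.0514). VSIG4, a complement receptor of Kupffer cells, was lower by 2 of 7 probes (-0.24, SE 0.08, in each). MARCO and TIMD4 were not measured. The part of these markers in the line difference of ARRB2 was not tested, and in a whole-tissue sample fewer cells of a type and less RNA per cell cannot be told apart.

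ALOX12 followed macrophage markers with r = 0.00 and 0.02 and platelet markers with 0.18 and -0.04. Platelet markers, 7 of 10 measured without PF4, were on average 0.05 higher in the low RFI line, with values from 0.79 to 1.66 against 0.91 to 1.62, and none was called. The gene means of this list ran from -3.69 to 11.12, and the brightest lay near the brightest hepatocyte marker (11.14). Whether the list reads platelets in these livers was not tested. ALOX15 A_72_P146721 followed platelet markers with 0.33 and 0.37, macrophage markers with -0.06 and 0.04, neutrophil markers with 0.51 and 0.22 and hepatocyte markers with 0.25 and 0.36. Of 8 eosinophil and mast cell markers, 2 were bright enough to be measured, and EPX and PRG2 were not. SLC16A11 followed hepatocyte markers with 0.48 and 0.41 and platelet markers with 0.39 and 0.43. The hepatocyte mean was 9.78 in the low and 9.79 in the high RFI line with all 10 markers measured. Of these, APOA1, the main protein of high-density lipoprotein, was called higher in the low RFI line by all 4 probes (0.15 to 0.23, P-BH = 0.0170 for A_72_P754826). Of 7 measured neutrophil markers, CXCR2, a chemokine receptor, was called lower (-0.20, SE 0.07, P-BH = 0.110).

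**Figure D5:**
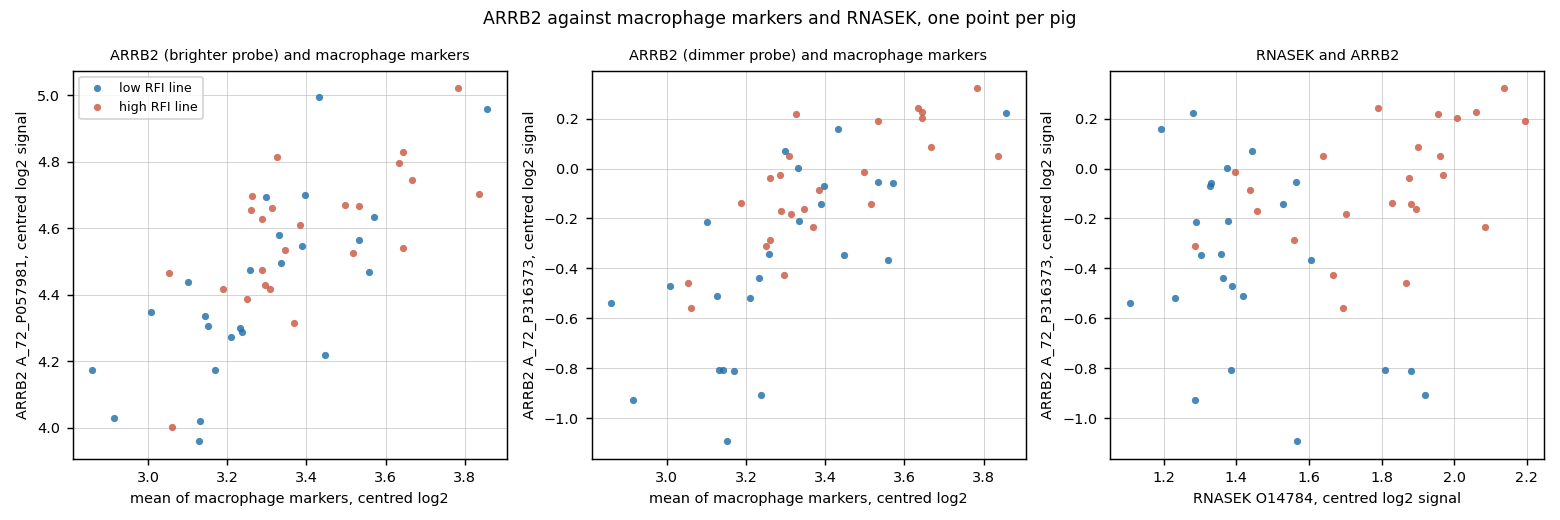
ARRB2 in each pig against the mean centred log2 value of macrophage markers (left and middle, for the 2 brighter probes) and against RNASEK O14784 (right), with the low RFI line in blue and the high RFI line in red. ARRB2 rose with the markers in both lines (r from 0.67 to 0.77), whereas with RNASEK r was -0.45 in the low and 0.48 in the high RFI line.

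Other genes of the members' pathways were taken from lists that leave the members out. Over all named genes, 4.63% had a probe called higher and 4.83% one called lower in the low RFI line, and 2.81% and 3.23% had one called higher and lower with HF. In the lipoxygenase and arachidonate list, 29 of 37 genes were measured, of which 1 was over-expressed and 3 under-expressed in the low RFI line. ALOX5AP, which presents arachidonic acid to 5-lipoxygenase, was lower in the low RFI line by all 5 probes, and most clearly by O10688 (2.01 ± 0.68 against 2.89 ± 0.37, difference -0.88, SE 0.16, P-BH = 0.000257). MGST2, a microsomal enzyme able to make leukotriene C, was lower by 0.59 on the log2 scale (5.47 ± 0.43 against 6.06 ± 0.44, P-BH = 0.00122). PTGR1, which inactivates leukotriene B and prostaglandins, was lower by 1 of 4 probes (difference -0.39, SE 0.12, P-BH = 0.0688). CYP4F2, which hydroxylates arachidonic acid and leukotriene B, was higher by 2 of 3 probes (0.80, SE 0.19, P-BH = 0.00710 for A_72_P224042). The median difference over the 68 probes of the list was -0.04, and no gene of it was called for diet.

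The remaining lists held few calls. Of 24 measured arrestin and receptor desensitization genes, GRK3, a receptor kinase (-0.25, SE 0.08, P-BH = 0.0822), and NSF, a membrane fusion ATPase (-0.18, SE 0.06, P-BH = 0.0849), were called lower in the low RFI line and none higher. Of 14 genes of the PELP1 complex and ribosome maturation, RIOK1, a kinase of small subunit maturation, was called higher (0.25, SE 0.07, P-BH = 0.0346). None of 10 monocarboxylate transporters besides SLC16A11 was called for line, and SLC16A7 was called higher with HF (0.32, SE 0.10, P-BH = 0.104). Of 17 vacuolar ATPase subunits, ATP6V1G1 was lower in the low RFI line by 3 of 4 probes (A_72_P352413: -0.28, SE 0.06, P-BH = 0.00120) and ATP6V0A1 higher (0.15, SE 0.05, P-BH = 0.0591). ATP6V1C1 (0.19, SE 0.05, P-BH = 0.0528) and ATP6V0E2 (0.14, SE 0.04, P-BH = 0.123) were called higher with HF. Median line differences of these lists lay between -0.03 and 0.02, against 0.01 over all tested probes.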

How the data were processed

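Liver RNA of 48 pigs was hybridised in a single colour (Cy3) to a porcine Agilent 8x60K array, 1 pig per array. The authors deposited the scanner output of each array (Feature Extraction 10.7.3.1), of which the processed signal intensity was used here, and a table of median-centred log2 values for 37378 probes, which equal log2 median intensities, with no background taken off, minus a constant per array. The submitters' processing notes name R 2.10.0. The arrays lay on 6 slides of 8, each with 2 pigs of every group, scanned on 2 days.

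Of 60305 probes, 45236 were kept for testing, each well above background on 12 arrays or more. The share well above background was 65.8 to 77.2% per array, the median intensity of tested probes was 141 to 336, no spot was saturated, and 483 outlier spots were set to missing. The number of arrays limits the precision. Log2 processed signals were centred on each array's median and fitted with limma 3.58.1 (line, diet, interaction). The spread was tested by the same fit on absolute deviations. Correlations were tested by permutation (100000 resamples, two-sided) in Python with numpy. The fit of the line difference, the spread test and the permutation tests of r and of its difference between lines were tested on simulated data. The other steps were not. Groups came from the sample titles. Probes were named by accession through the Sscrofa11.1 annotation (7173) or else by the name in the scanner output (16905); 36228 stayed unnamed.

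Members, gene lists and tests were chosen with earlier results of these data known. Genes named are all members, genes around them called for any effect, the called genes of each pathway list (at most 5 for line and for diet), and the 5 genes most like each member (ARRB2 for its 2 brighter probes), of which 1 is not reported here; C12H17orf49, SLC16A13 and the marker genes in the text were named in addition, after their values were seen. The alternatives were other centring, normalization, background correction, filters, the deposited log2 values, slide or scan day as a block, each scan day on its own, and other probes per gene. Per-pig relatedness was not given in the sources used here.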

Additional observations from a re-analysis of the deposited data

Results flagged for a closer look

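ARRB2 and RNASEK differed between lines in how they moved together, in a comparison chosen after the values were seen. With the probes called between lines (A_72_P316373 and O14784) and the diet group means removed, r was -0.57 in the low RFI line and 0.46 in the high RFI line, a difference of -1.04 (permutation of line labels, P = 0.00116, P-BH = 0.0174 over 15 pairs). The difference was -1.35 on scan day 1 (P-BH = 0.0471) and -0.90 on day 2 (P-BH = 0.930), with 12 pigs per line each, and it lay between -1.05 and -0.92 under other centring, normalization and background correction (P-BH from 0.00840 to 0.0379). With the probes of highest intensity it was -0.30 (P-BH = 0.963). In the low RFI line the 3 pigs with the highest RNASEK (1.81 to 1.92) had ARRB2 between -0.91 and -0.81, and without them r before removal of the diet means was -0.11 (n = 21) in place of -0.45. ARRB2 also followed macrophage markers (r = 0.68 and 0.77), RNASEK O14784 with 0.01 in the low and 0.28 in the high RFI line. With T and NK cell markers r was 0.76 and 0.58 for ARRB2 and -0.46 and 0.16 for RNASEK, and with eosinophil and mast cell markers, 2 of 8 measured, 0.32 and -0.03 for ARRB2 and -0.52 and -0.09 for RNASEK. The part of those markers was not tested.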

How the results depend on the processing

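With 12 pigs per group, no pig was left out in turn, and no paired analysis was possible because the labels give every array the same replicate number. Under up to 15 settings ALOX12 differed between lines by 0.39 (normexp) to 0.78 (scan day 1), A_72_P440316 by -0.77 to -0.28 and RNASEK O14784 by -0.38 to -0.34; each called probe kept its sign. Member probes called for line fell from 6 to 4 with 75th percentile centring, normexp, median intensity and deposited values (which hold no A_72_P316373), to 5 with quantile normalization, no filter, slide or scan day as a block, and to 2 on each scan day on its own. Among the genes around them, probes called for line went from 1 to 2 with 75th percentile centring, median intensity, deposited values or probes well above background on all arrays, and to 0 on scan day 2; those called for diet went from 6 to 3 on day 1 and 2 on day 2. Pathway genes called for line fell from 9 to 4 and those for diet rose from 3 to 6 on day 1. On a single day the fit has fewer pigs. No pair of members passed a P-BH of 5% within a line under any of 14 settings; ALOX15 with ALOX12 in the low RFI line ran from r = 0.19 (called probes) to 0.68 (day 2). Dim probes are the most open to background correction, as for ALOX12 and A_72_P440316.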
